A study of Mus musculus with 696 samples.

Results

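S100a8, S100a9 and Wfdc17, genes linked to tissue damage, were followed at single-cell resolution in Lrig1 GL (genetically labelled) cells of mouse tail epidermis. They were taken by name as 3 of the 15652 gene rows of the table, and all 3 passed the filter on low counts that left 13853 genes for testing. Each was read as a level per plate, as a share of positive cells, and by its overlap with keratin-positive cells and with cells positive for Ptprc, the gene of the pan-leukocyte antigen CD45.

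The cells came from mice that carried Lrig1-EGFP-ires-CreERT2 together with the reporter Rosa26-fl/STOP/fl-tdTomato, on a CBA C57BL/6 mixed strain, in which hydroxytamoxifen switches on tdTomato in cells that express Lrig1 and in all their later progeny. Every time point, 0w included, had received the same single topical hydroxytamoxifen dose on tail skin before wounding, and the animals were adult females. By the study's methods this dose came 1 week before the first wound. Cells of the later time points were thus taken from older animals and longer after labelling than the 0w cells. No unwounded plate of those ages is among the plates, so age, time since labelling and wounding cannot be told apart. The 4 time points were 0w (before any wound), 1w pw1 (1 week after a first full-thickness tail wound), 8w pw1 (8 weeks after it) and 1w pw2 (1 week after a second wound made on the same spot, named week 9 in the labels). tdTomato+ cells were sorted singly into plates from tissue that held both the wound bed and distal hair follicles, so a change in a plate can come from a change within cells or from a change in which cells of the lineage were sorted, and the 2 cannot be told apart. Each time point had 2 plates of 79 to 91 cells, 696 cells in all, and each plate held 12293182 to 19760820 estimated counts. Each time point also carries its own Rep letter (B, C, F or G) in the sample titles, so that letter and the time point cannot be told apart. The study's methods describe independent experiments that each drew on several biological replicates, but the labels tie no plate to an experiment or to animals, so p-values measure the spread between these plates, which may be in part technical.

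S100a8 and S100a9 are small calcium-binding proteins that pair to form calprotectin. Stressed or dying cells release them, and outside the cell they act as alarmins: signals of damage that are sensed by receptors such as Tlr4 and Ager, and they also starve microbes of metal ions. Neutrophils and monocytes are their best known source, and keratinocytes of wounded or inflamed skin also make them. Wfdc17 is a small secreted protein with a WAP domain, the fold of the protease inhibitor Slpi, and it is best known from activated macrophages and microglia.

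On the GRCm38 build, S100a8 (ENSMUSG00000056054) lies on the + strand of chromosome 3 from 90668978 to 90670035, and S100a9 (ENSMUSG00000056071) lies on the - strand of the same chromosome from 90692632 to 90695721. They are neighbours: 22596 bases separate them and 0 annotated genes lie between. Wfdc17 (ENSMUSG00000069792) lies on the + strand of chromosome 11 from 83703991 to 83706268. Each has 3 exons in its longest coding transcript, of 486, 519 and 533 bases, and none overlaps another annotated gene. The 250 bases upstream of each RefSeq start (GRCm38.p6) are shown because all 3 genes were at higher levels on each plate of the 2 wounds than on the 8w pw1 and 0w plates. They are chr3:90668821-90669070 for S100a8, chr3:90695722-90695971 for S100a9 and chr11:83703806-83704055 for Wfdc17, each 5′ to 3′ on the strand of its gene, with capitals for matches to TATAAA (the TATA box) and TTGCNNAA (a C/EBP site).
S100a8: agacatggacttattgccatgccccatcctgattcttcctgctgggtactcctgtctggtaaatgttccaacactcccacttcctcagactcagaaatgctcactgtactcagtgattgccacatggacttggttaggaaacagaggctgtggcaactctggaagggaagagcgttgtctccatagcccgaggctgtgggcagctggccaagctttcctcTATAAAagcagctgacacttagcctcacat
S100a9: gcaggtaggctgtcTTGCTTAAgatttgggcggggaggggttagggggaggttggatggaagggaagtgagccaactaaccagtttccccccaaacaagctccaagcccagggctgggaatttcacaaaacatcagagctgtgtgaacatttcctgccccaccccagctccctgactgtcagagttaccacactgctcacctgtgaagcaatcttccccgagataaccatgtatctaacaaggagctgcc
Wfdc17: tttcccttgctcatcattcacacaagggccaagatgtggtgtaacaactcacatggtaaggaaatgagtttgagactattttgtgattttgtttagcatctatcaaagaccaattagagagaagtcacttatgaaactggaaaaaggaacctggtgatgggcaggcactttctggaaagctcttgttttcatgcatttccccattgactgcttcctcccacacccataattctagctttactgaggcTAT

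In the RefSeq windows of 300 bases (the 250 above and 50 after the start), searched on both strands, TATAAA stood at bases -30 to -25 of S100a8, counted from the start with no base 0. In S100a9 it stood at bases 1 to 6, just beyond the printed stretch, and in Wfdc17 at bases -3 to 3, of which the first 3 are printed. TATAAA is in 13.6% of the 32851 windows of that length. TTGCNNAA matched at bases -236 to -229 of S100a9 and is in 10.8% of windows. The letters TGANTCA (AP-1) and TTCNNNGAA (STAT), which 7.81% and 8.30% of windows hold, and the NF-kB letters GGGA and CC with 4 bases of any kind between them, which 20.7% hold, matched in none of the 3. A match is a description of the letters and not a binding site.

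S100a8 was near the detection floor before wounding and was at its highest 1 week after the first wound. Its estimated counts per plate were 10 and 53 at 0w, 186645 and 44968 at 1w pw1, 4378 and 2 at 8w pw1, and 9138 and 20160 at 1w pw2. As CPM (counts scaled to library size by edgeR's TMM factors) these were 0.519 and 2.86, then 12201 and 2635, then 315 and 0.13, then 640 and 1088. Both 1w pw1 plates lay above both 1w pw2 plates, and the 8w pw1 plates spanned the 0w plates, one far above them and one below.

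S100a9 followed its partner at a lower level. It had 0 counts on both 0w plates, 30133 and 4712 at 1w pw1, 139 and 0 at 8w pw1, and 287 and 1908 at 1w pw2. The CPM were 1970 and 276 at 1w pw1, 10.01 and 0 at 8w pw1, and 20.1 and 103 at 1w pw2. Again both 1w pw1 plates were above both 1w pw2 plates, and 1 of the 8w pw1 plates held none, as at 0w, where 3 counts would have been 0.156 and 0.162 CPM.

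Wfdc17 was detected on both 8w pw1 plates, and its levels after the 2 wounds overlapped. It had 0 counts on both 0w plates, 3500 and 25820 at 1w pw1, 170 and 237 at 8w pw1, and 728 and 27277 at 1w pw2. Its CPM were 229 and 1513 at 1w pw1, 12.2 and 15.5 at 8w pw1, and 51.0 and 1472 at 1w pw2. The 8w pw1 plates lay close together and below every plate of the 2 wounds, whereas the plates of the first and second wounds overlapped.

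**Figure D1:**
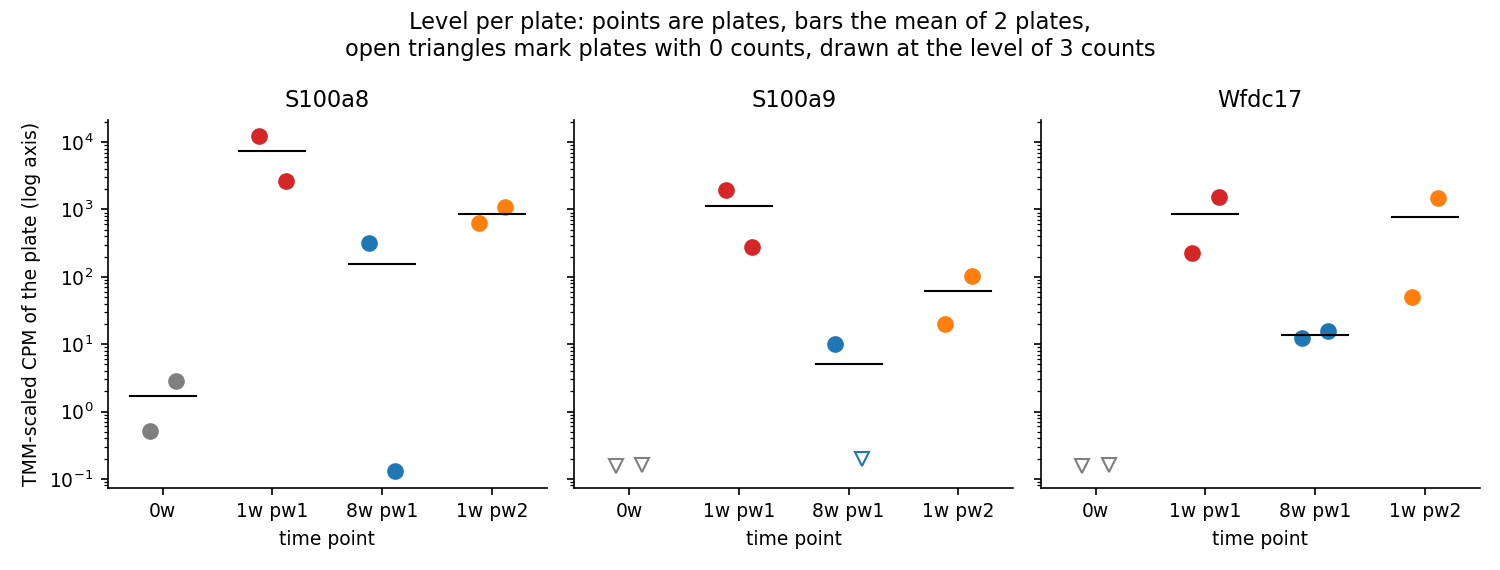
Level of S100a8, S100a9 and Wfdc17 on each plate (TMM-scaled CPM, log axis) by time point, with a bar at the mean of the 2 plates and open triangles for plates with 0 counts, drawn at the level of 3 counts. All 3 means are highest at 1w pw1 (7418, 1123 and 871 CPM) and lowest at 0w.

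In order of mean level the time points ran 1w pw1, 1w pw2, 8w pw1 and 0w for each gene. For S100a8 and S100a9 the place of 8w pw1 above 0w rested on 8w pw1 replicate 1. For Wfdc17 the plates of the 2 wounds overlapped. Their order turned when 1w pw1 replicate 2, 1w pw2 replicate 1 or the highest cell of each plate was left out. S100a8 averaged 7418 ± 6764 CPM at 1w pw1, 864 ± 317 at 1w pw2, 158 ± 223 at 8w pw1 and 1.69 ± 1.65 at 0w (SD, n = 2). S100a9 averaged 1123 ± 1198, 61.5 ± 58.6, 5.004 ± 7.08 and 0 in the same order. Wfdc17 averaged 871 ± 908, 761 ± 1005, 13.9 ± 2.28 and 0. Per kilobase of the longest coding transcript, which makes levels comparable between genes, S100a8 had the highest mean level at 1w pw1 (15263 ± 13918 CPM per kb), against 2164 ± 2308 for S100a9 and 1634 ± 1703 for Wfdc17. At 1w pw2 Wfdc17 (1428 ± 1885 CPM per kb) had a mean near that of S100a8 (1777 ± 652), but on replicate 1 it stood at 95.6 CPM per kb against 1316 for S100a8, so its mean rests on replicate 2. S100a9 averaged 119 ± 113 CPM per kb.

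The first comparison asks which of the 3 genes differed 1 week after the first wound from unwounded skin. Wfdc17 rose, whereas the differences of S100a8 and S100a9 did not pass the test as fitted by time point. Both 1w pw1 plates were above both 0w plates for each gene. Wfdc17 was at least 10972-fold higher, with 0w set at 3 counts over its 2 plates (edgeR quasi-likelihood test, Benjamini-Hochberg adjusted p = 0.0309). S100a9 was at least 14149-fold higher by the same floor but had an edgeR adjusted p of 0.0573. S100a8 had a ratio of means of 4392 and a log2 fold change of 12.10 ± 2.73 (SE), with an edgeR adjusted p of 0.0945. So 1 of 3 genes was called, beside 73 of 13853 genes tested (0.527%), where a call needs an adjusted p below 0.05 and a fold above 2.

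These calls rested on few plates. Leaving out either 0w plate ended the Wfdc17 call (edgeR adjusted p = 0.129 for replicate 1 and 0.127 for replicate 2), as did leaving out the second 1w pw1 plate (0.0580). The bound was 2883-fold without that last plate and 19061-fold without its partner. For S100a9 the bound was 24819-fold and 3479-fold in the same fits. Without either 0w plate, when the 3 counts of the floor fall on the other one, the bounds were 5381-fold and 5591-fold for Wfdc17 and 6939-fold and 7210-fold for S100a9. With the replicate number as a block S100a9 passed (edgeR adjusted p = 0.0353), although the labels give the plates only a shared number. S100a8 passed when only the 4 plates compared were fitted (0.0132) or when either 8w pw1 plate was left out (0.00848 and 0.00882), and S100a9 passed in the same fits (0.0138, 0.0168 and 0.0177). DESeq2 called all 3 genes (adjusted p = 9.03e-06 for S100a8, 3.97e-05 for S100a9 and 5.72e-10 for Wfdc17), and it called 723 genes in all where edgeR called 73. The S100a8 log2 fold change ranged from 10.58 (1w pw1 replicate 1 left out) to 13.76 (0w replicate 2 left out).

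**Figure D2:**
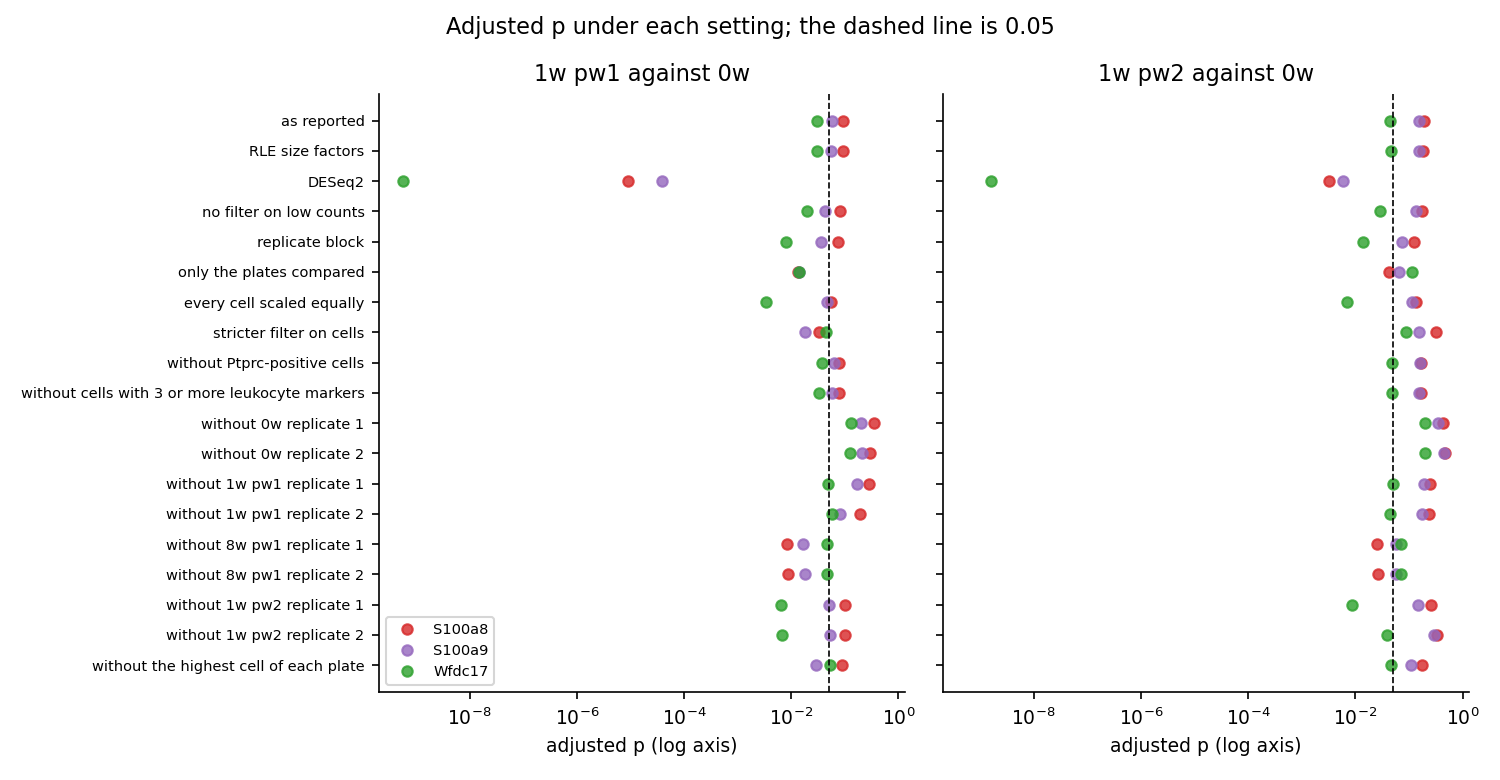
Adjusted p (log axis) of S100a8, S100a9 and Wfdc17 under each setting, for 1w pw1 against 0w (left) and 1w pw2 against 0w (right), with a dashed line at 0.05. The Wfdc17 points sit on both sides of the line, as reported at 0.0309 and 0.0448 and without 0w replicate 1 at 0.129 and 0.196.

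By 8w pw1 the mean levels were below those of 1w pw1, and both plates of the time point still held Wfdc17. Against 1w pw1, the log2 fold changes at 8w pw1 were -5.56 ± 2.08 for S100a8, -7.81 ± 2.01 for S100a9 and -5.97 ± 1.51 for Wfdc17 (SE). None was called by edgeR (adjusted p = 0.368, 0.188 and 0.187), beside 16 of 13853 genes (0.115%). All 3 values stayed negative with any 1 plate left out but their size moved. Leaving out 1w pw1 replicate 1 gave -4.12 for S100a8 and -5.84 for S100a9, leaving out 1w pw1 replicate 2 gave -4.07 for Wfdc17, and leaving out 8w pw1 replicate 1 gave -15.72 for S100a8 and -17.21 for S100a9, fitted against 2 and 0 counts and so no measure of size. With a stricter filter on cells (2000 genes or more and no more than 20% mitochondrial, which left 313 cells), S100a8 (edgeR adjusted p = 0.0482) and S100a9 (0.0463) passed, and by DESeq2 Wfdc17 passed (0.0286).

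Against 0w, healed skin at 8w pw1 held at least 175-fold more Wfdc17 and at least 63.0-fold more S100a9, and S100a8 had a ratio of means of 93.3. The S100a8 and S100a9 values came from 1 plate: without 8w pw1 replicate 1, S100a9 had 0 counts and the log2 fold change of S100a8 turned to -3.64. Without 0w replicate 2 the S100a8 value was 8.17. The S100a9 bound was 126-fold without 8w pw1 replicate 2, and 30.9-fold and 32.1-fold without the first or second 0w plate. The Wfdc17 bound was 195-fold without 8w pw1 replicate 1 and 154-fold without 8w pw1 replicate 2, and 85.6-fold and 88.9-fold when the first or second 0w plate was left out. In the 313 cells of the stricter filter the S100a8 log2 fold change was 1.07 in place of 6.54, and the fitted values, which are no bounds, were 3.94 in place of 10.84 for Wfdc17 and 5.71 in place of 9.37 for S100a9. The edgeR adjusted p-values were 0.690, 0.685 and 0.541 for S100a8, S100a9 and Wfdc17, and no gene of the 13853 was called (0%). At an unadjusted p below 0.05 edgeR had 897 genes, and DESeq2 called 155, among them Wfdc17 (adjusted p = 0.00191).

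After the second wound Wfdc17 rose again relative to 0w, by at least 9593-fold (edgeR adjusted p = 0.0448). S100a9 was at least 775-fold higher (adjusted p = 0.154), with 1297-fold without 1w pw2 replicate 1 and 253-fold without 1w pw2 replicate 2, and S100a8 had a log2 fold change of 8.99 ± 2.44 (adjusted p = 0.187). DESeq2 called all 3 (0.00327 for S100a8, 0.00600 for S100a9 and 1.60e-09 for Wfdc17), and edgeR also passed S100a8 without either 8w pw1 plate (0.0254 and 0.0263). As fitted over all plates 1 of 3 was called, beside 37 of 13853 genes (0.267%). For Wfdc17 the bound was 642-fold without 1w pw2 replicate 2 and 18544-fold without 1w pw2 replicate 1. Without the first or second 0w plate it was 4705-fold and 4888-fold, and that of S100a9 was 380-fold and 395-fold. The S100a8 log2 fold change was then 8.20 and 10.66. The Wfdc17 call was lost by edgeR without 0w replicate 1 (0.196), 0w replicate 2 (0.196), 1w pw1 replicate 1 (0.0503), 8w pw1 replicate 1 (0.0700) or 8w pw1 replicate 2 (0.0723), and also with the 4 plates compared alone (0.113) and with the stricter filter on cells (0.0868). This comparison and the other 2 against 0w share the same 2 control plates.

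From 8w pw1 to 1w pw2 the log2 fold changes were 2.45 ± 1.81 for S100a8, 3.62 ± 1.67 for S100a9 and 5.78 ± 1.50 for Wfdc17 (SE), and edgeR called none of them (adjusted p = 0.779, 0.637 and 0.387), beside 1 of 13853 genes (0.00722%). Both 1w pw2 plates were above both 8w pw1 plates for each of the 3 genes. The size rested on single plates. Wfdc17 was at 1.93 without 1w pw2 replicate 2, and without 8w pw1 replicate 1 S100a8 was at 12.61 and S100a9 at 13.01, again against 2 and 0 counts. With the stricter filter on cells the values were 6.15 for S100a8, 6.32 for S100a9 and 12.02 for Wfdc17, none of them called.

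Between the 2 wounds, S100a8 had a log2 fold change of -3.10 ± 1.85, S100a9 of -4.19 ± 1.69 and Wfdc17 of -0.19 ± 1.21 at 1w pw2 relative to 1w pw1 (SE). The edgeR adjusted p-values were 0.795, 0.781 and 0.982, and no gene was called (0%; 832 genes had an unadjusted p below 0.05, and DESeq2 called 41, none of these 3). The sign for Wfdc17 was not stable, with 1.71 without 1w pw1 replicate 2, 0.74 without 1w pw2 replicate 1 and -4.07 without 1w pw2 replicate 2. Without 1w pw1 replicate 1, S100a8 was at -1.63 and S100a9 at -2.18. The difference between the healings (the step into 1w pw2 less the step into 1w pw1) was not called for any of the 3 (edgeR adjusted p = 0.873, 0.738 and 0.738), nor for any gene (0%; 740 at an unadjusted p below 0.05 and 77 by DESeq2, none of these 3).

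The 2 wounds had overlapping shares of S100a8-positive cells, with lower levels in those cells at the second. A cell was called positive at 1 or more estimated counts. S100a8-positive cells made up 6.82% and 4.40% of the 0w plates, 40.4% and 34.2% at 1w pw1, 8.24% and 1.15% at 8w pw1, and 36.0% and 34.1% at 1w pw2. The exact (Clopper-Pearson) 95% intervals of the 1w pw1 plates (30.2 to 51.4% and 23.9 to 45.7%) overlapped those of the 1w pw2 plates (26.0 to 47.1% and 24.5 to 44.8%). The median level in a positive cell was 3273 and 858 CPM at 1w pw1 but 245 and 226 CPM at 1w pw2.

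S100a9-positive cells were 29.2% and 21.5% of cells at 1w pw1, 4.71% and 0% at 8w pw1, and 16.3% and 17.6% at 1w pw2. On the 0w plates they were 0 of 88 and 0 of 91 cells, which allows shares of up to 3.41% and 3.30% (3 cells of the total), or 4.11% and 3.97% by the exact two-sided intervals. Their median level at 1w pw1 (239 and 448 CPM) and at 1w pw2 (109 and 128 CPM) kept the same order.

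Wfdc17 showed the reverse order of shares, since 16.9% and 13.9% of cells were positive at 1w pw1 and 29.1% and 22.0% at 1w pw2. At 8w pw1 the shares were 5.88% and 6.90%, and at 0w 0 cells held it. The 2 time points of the wounds did not overlap in this share, although the exact intervals of single plates did, and 2 plates against 2 cannot give a two-sided exact permutation p below 0.333. Intervals and floors cover counting error only, since Smart-seq2 reads carry no molecular identifiers.

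**Figure D3:**
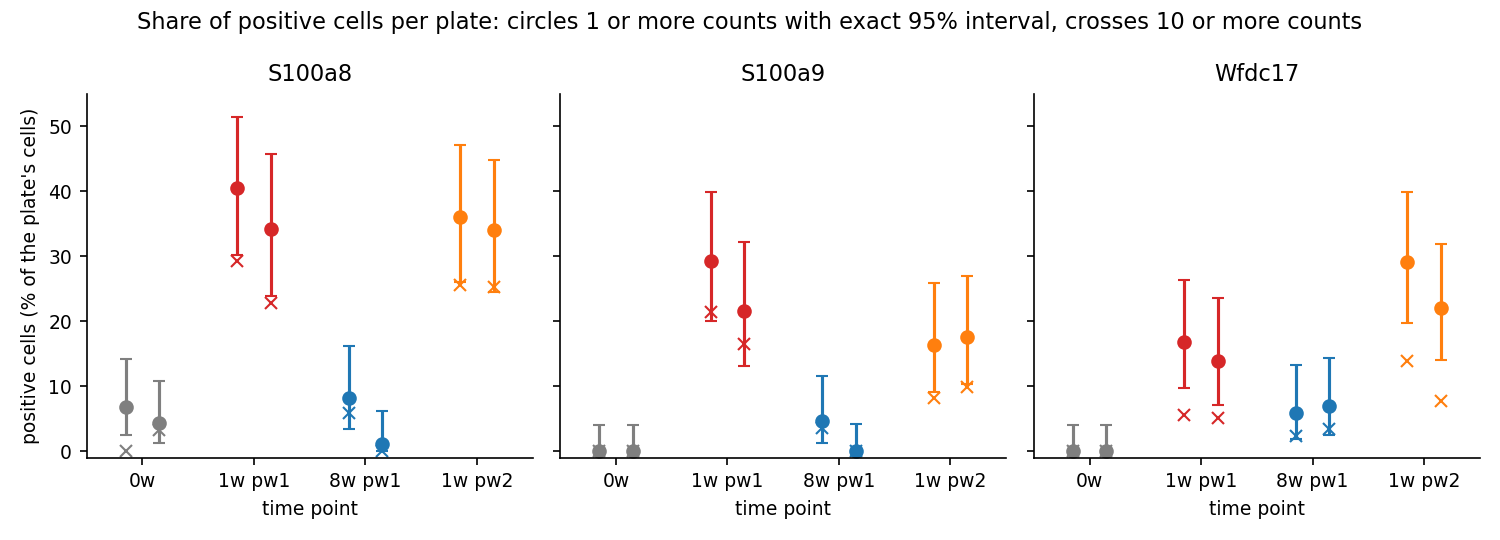
Share of cells positive for each gene on each plate (% of the plate's cells), with circles and exact 95% intervals for 1 or more counts and crosses for 10 or more. S100a8 reaches 34.1 to 40.4% of cells in all 4 plates of the wounds, and Wfdc17 is the only one of the 3 with a higher share at 1w pw2 (25.5% mean) than at 1w pw1 (15.4%).

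The order of the shares between the wounds was the same in cells brought to 1 depth. With each cell thinned to 20000 counts, leaving the 645 cells of at least that depth, the mean expected shares were 30.7% at 1w pw1 and 29.8% at 1w pw2 for S100a8, 21.0% and 11.97% for S100a9, and 8.05% and 17.9% for Wfdc17. At 8w pw1 they were 4.86%, 1.80% and 5.49%. The plates kept 73 to 86 cells each, and the median depth of a cell ran from 64980 counts on the second 8w pw1 plate to 256588 on the second plate of 1w pw1.

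The counts sat in few cells. For S100a8, the highest single cell held 39.6% and 20.8% of the counts of the 1w pw1 plates and 27.3% and 49.0% of the 1w pw2 plates. A single S100a8-positive cell of 1w pw1 replicate 1 reached 161514 CPM. For Wfdc17, 1 cell of 1w pw1 replicate 2 held 25518 of the 25820 counts of its plate (98.8%), and without it the level of that plate was 18.1 CPM. On 1w pw2 replicate 2 a pair of cells held 50.4% and 49.0% of the Wfdc17 counts. Without the highest cell of each plate, an alternative chosen after the data were seen, Wfdc17 at 1w pw1 against 0w came to an edgeR adjusted p of 0.0540 and S100a9 to 0.0290.

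The pair was found in the same cells. Of the 77 S100a9-positive cells, 72 (93.5%) were also S100a8-positive, while 50.3% of the 143 S100a8-positive cells held S100a9. At 10 or more counts, all 51 S100a9 cells were among the 97 S100a8 cells. In those 51 cells the ratio of S100a8 to S100a9 counts had a median of 13.7 and ran from 0.427 to 97.2, and S100a8 was higher in 49 of them. Wfdc17 overlapped the pair less, with 34 cells shared with S100a8 (41.5% of the 82 Wfdc17-positive cells and 23.8% of the S100a8-positive ones) and 18 with S100a9 (22.0% and 23.4%). Of all cells on the wound plates, 34.1 to 40.4% were S100a8-positive and 16.3 to 29.2% S100a9-positive. The pooled 41.5% and 22.0% thus lay near the shares among all cells of those plates.

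Nearly every positive cell was keratin-positive. Keratin-positive means 1000 CPM or more summed over Krt5, Krt14, Krt15, Krt1, Krt10, Krt17, Krt79 and Krt6a, a panel of basal, suprabasal, follicle and stress keratins, and 657 of all 696 cells met it. Among S100a8-positive cells 140 of 143 did (97.9%, exact 95% interval 94.0 to 99.6%), among S100a9-positive cells 77 of 77, and among Wfdc17-positive cells 81 of 82 (98.8%). With the threshold at 10000 CPM the shares were 85.3%, 92.2% and 87.8%, beside 58.5% of all cells but 79.1 to 88.6% of the cells of the 4 wound plates, which held most of the positive cells. Keratin transcripts, the defining markers of the labelled cell type, were thus present in most cells.

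Ptprc was rare. It was found in 27 of the 696 cells, and in only 4 of these at 10 or more counts. S100a8-positive cells included 8 Ptprc-positive ones (5.59%, exact 95% interval 2.45 to 10.7%), S100a9-positive cells 1 (1.30%) and Wfdc17-positive cells 3 (3.66%). Read from the other side, 29.6% of the 27 Ptprc-positive cells held S100a8 against 21.3% of keratin-positive cells, 3.70% against 11.7% held S100a9, and 11.1% against 12.3% held Wfdc17. Of the 4 cells with 10 or more Ptprc counts, 3 held none of the 3 genes, including the pair with low keratin (0 and 92.9 CPM). The fourth, on 1w pw2 replicate 2, held 69 Ptprc counts, 9879 S100a8 counts, 151 S100a9 counts, 20683 CPM of keratins and 8985 genes, against a median of 4470 genes per cell, and doublets were not called here.

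Removing the Ptprc-positive cells lowered S100a8 on 1w pw2 replicate 2 from 1088 to 660 CPM and changed little elsewhere on the wound plates (12507 and 2799 CPM at 1w pw1). On 0w replicate 2, where 2 of the 4 S100a8-positive cells were Ptprc-positive, it lowered S100a8 from 2.86 to 1.13 CPM. The S100a8 log2 fold change at 1w pw1 against 0w went from 12.10 to 13.16. Without the Ptprc-positive cells, S100a8 at 1w pw1 against 0w had an edgeR adjusted p of 0.0787, S100a9 of 0.0630 and Wfdc17 of 0.0369, and Wfdc17 at 1w pw2 against 0w of 0.0481. Marker lists of other cells were summed on each plate. The 7 of 12 leukocyte markers in the table summed to 76.4 to 112 CPM on the 0w plates. They summed to 47.2 to 95.7 CPM on the 1w pw1 plates. The 8w pw1 plates held 42.4 to 126 CPM and the 1w pw2 plates 56.4 to 84.1 CPM. Arhgdib gave most of every sum, so these sums say little of the other genes. Ptprc had 0.104 and 0.216 CPM before wounding, and 2.73 and 15.8 CPM after the second wound. That log2 fold change was 5.79 ± 1.59 (edgeR adjusted p = 0.187). After the first wound Ptprc had 0.131 and 0.293 CPM, and in healed skin 0.360 and 6.46 CPM. Median log2 fold changes of the list against 0w were 2.56 for 8w pw1, 1.60 for 1w pw2 and -0.28 for 1w pw1. None of its genes was called. The 12 of 20 neutrophil markers summed to 4.44 to 7.37 CPM at 0w, 7.82 to 45.1 CPM at 1w pw1, 4.32 to 7.86 CPM at 8w pw1 and 17.6 to 33.0 CPM at 1w pw2. Within that list Csf3r, the receptor for the neutrophil growth factor, was at 0 to 0.58 CPM. The highest values were those of the collagenase genes Mmp9 (40.5 CPM on 1w pw1 replicate 1) and Mmp8 (25.8 CPM on 1w pw2 replicate 1). Cxcr2, another receptor gene of that list, had counts in 80 cells. It was at 0.363 and 0.485 CPM at 0w and 1.24 and 3.57 CPM at 1w pw1. At 8w pw1 it was at 0.504 and 0.913 CPM, and at 1w pw2 at 0.630 and 2.37 CPM. Its log2 fold change at 1w pw1 against 0w was 2.485 ± 1.21 (edgeR adjusted p = 0.486). The 10 of 20 macrophage and monocyte markers summed to 5.80 to 11.5 CPM over the plates of 0w and to 6.60 to 11.4 CPM over the others. The 6 of 10 Langerhans and dendritic cell markers summed to 3.89 to 6.02 CPM at 0w and 9.38 to 11.4 CPM at 1w pw1, to 7.85 and 15.9 CPM on the 8w pw1 plates and to 9.27 and 69.8 CPM on the 1w pw2 plates. On the last of these H2-Aa was at 20.7 CPM, H2-Ab1 at 19.7 CPM and Cd74 at 15.5 CPM. The 5 of 9 T cell markers summed to 2.996 to 4.90 CPM over all plates, and the 5 of 6 fibroblast markers to 20.5 to 25.4 CPM at 0w and 0.586 to 15.9 CPM elsewhere. The 3 of 5 melanocyte markers summed to 2.05 to 11.99 CPM. The 2 of 4 endothelial markers summed to 109 to 1846 CPM, nearly all from Pecam1, which had counts in 687 of the 696 cells, while Kdr had counts in 4. Ly6g, Lyz2, Adgre1 and Tyrobp, which define these cells, were in these lists but had no gene row in the table, so their levels could not be read. The part of such cells in the plate levels was not tested beyond these values.

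The positive cells differed in the keratins they carried, and this was examined after the values had been seen. At 1w pw1, 66.7% and 59.3% of S100a8-positive cells and 88.5% and 82.4% of S100a9-positive cells held Krt6a, a keratin of wounded and stressed epidermis, at 1000 CPM or more, against 34.8% and 29.1% of all cells of those plates. For Wfdc17-positive cells the Krt6a shares were 26.7% and 18.2%. Krt14, a keratin of the basal layer, was held at that level by 92.3% and 88.2% of S100a9-positive cells but by 33.3% and 27.3% of Wfdc17-positive cells, beside 55.1% and 51.9% of all cells. For S100a8-positive cells the Krt14 shares were 77.8% and 66.7%. Krt10, a keratin of the suprabasal layers, was held by 80.0% and 81.8% of Wfdc17-positive cells beside 62.9% and 73.4% of all cells. It was held by 46.2% and 58.8% of S100a9-positive and 55.6% and 70.4% of S100a8-positive cells. Krt1, also suprabasal, was held by 42.3% and 58.8% of S100a9-positive cells beside 38.2% and 41.8% of all cells. Of the other basal keratins, S100a9-positive cells held Krt5 in 11.5% and 17.6% (all cells 5.62% and 6.33%) and Krt15 in 0%. At 1w pw2 the same order held for Krt14, with 78.6% and 75.0% of S100a9-positive cells against 36.0% and 25.0% of Wfdc17-positive cells. There S100a8-positive cells stood at 54.8% on each plate, near the 54.7% and 50.5% of all cells. Cells of a plate share a library preparation, so these shares are given with no test.

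**Figure D4:**
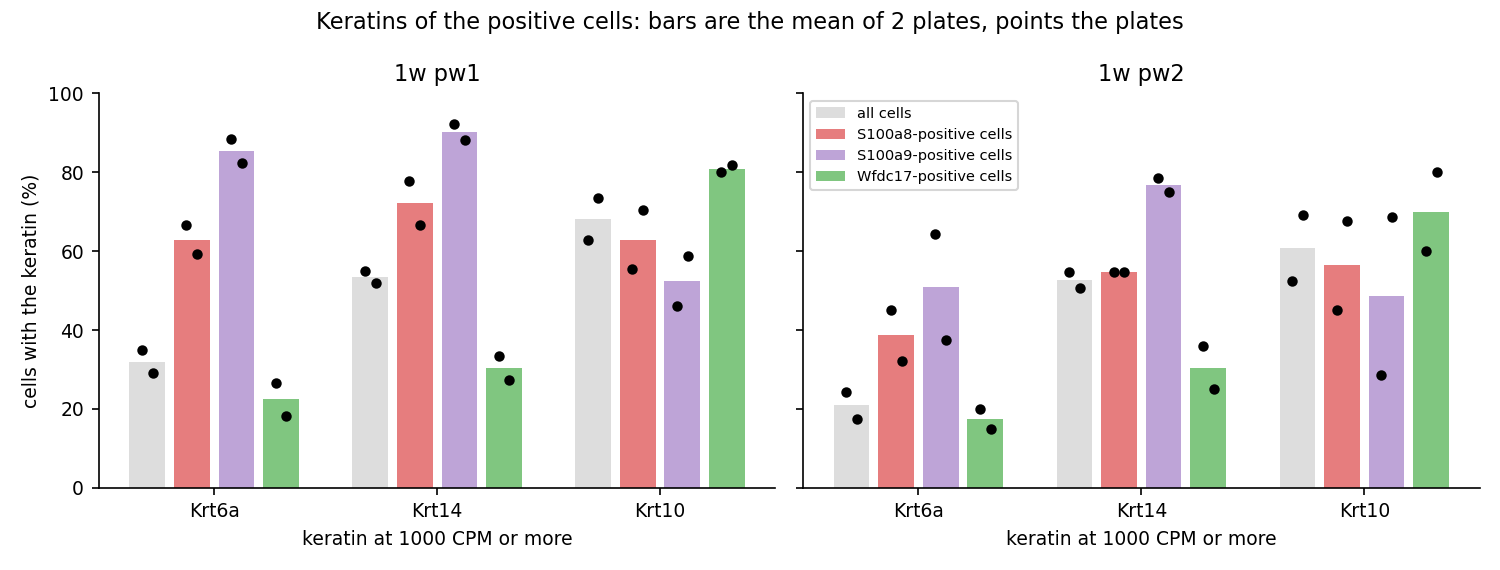
Share of cells with Krt6a, Krt14 or Krt10 at 1000 CPM or more (%), among all cells and among cells positive for each gene, at 1w pw1 and 1w pw2, with bars at the mean of 2 plates and points for the plates. The S100a9-positive bars are the highest for Krt6a and Krt14, and the Wfdc17-positive bars are the highest for Krt10 (80.0% and 81.8% on the 1w pw1 plates).

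The 20 cells with the most counts of each gene gave the same picture as a description. They held 85.9% of all S100a8 counts, 95.4% of S100a9 counts and 99.3% of Wfdc17 counts. Of the top 20 S100a8 cells, 20 held Krt14 and 19 Krt6a at 1000 CPM or more, and 9 held Krt10. The top 20 S100a9 cells were 20, 19 and 8 for the same keratins. Of the top 20 Wfdc17 cells 4 held Krt14, 5 Krt6a and 17 Krt10. The cell with the most Wfdc17 had 143285 CPM of Krt10, 118 CPM of Krt14, and 0 counts of S100a8 and S100a9.

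**Figure D5:**
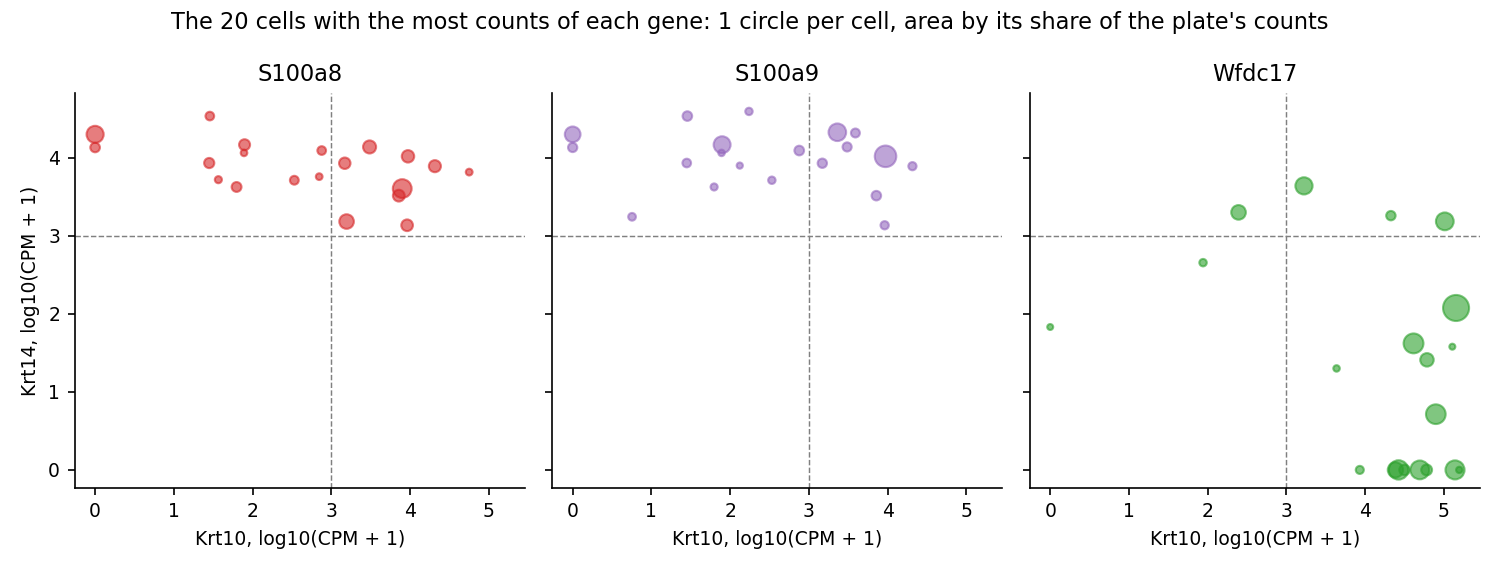
Krt10 against Krt14 (log10 of CPM + 1) in the 20 cells with the most counts of each gene, with 1 circle per cell whose area grows with its share of the plate's counts and dashed lines at 1000 CPM. All 20 S100a8 cells and all 20 S100a9 cells lie above the Krt14 line, and 17 of the 20 Wfdc17 cells lie right of the Krt10 line.

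The same overlap was read from the keratin side, as a description with no test between time points. Of the cells with Krt6a at 1000 CPM or more, 40 of 54 at 1w pw1 (74.1%, exact 95% interval 60.3 to 85.0%) and 24 of 37 at 1w pw2 (64.9%, 47.5 to 79.8%) were S100a8-positive, and 2 of 22 at 8w pw1 (9.09%, 1.12 to 29.2%). Both of these were on 8w pw1 replicate 1. Only 3 cells reached that Krt6a level at 0w and none of them held S100a8. Of the cells with Krt10 at that level, 0 of 32 at 0w, 21 of 114 at 1w pw1 (18.4%, 11.8 to 26.8%), 8 of 39 at 8w pw1 (20.5%, 9.30 to 36.5%) and 31 of 108 at 1w pw2 (28.7%, 20.4 to 38.2%) were Wfdc17-positive. Intervals pool the cells of 2 plates and cover counting error only.

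Likeness across cells, as Pearson's r of log2(CPM + 1) over 696 cells and among 13166 genes, followed the same lines. S100a8 was most like S100a9 (r = 0.83), then Krt6b (0.76), Cstdc5 (0.69), Cstdc6 (0.69) and Sprr2a2 (0.68). S100a9 was most like S100a8, then Krt6b (0.82), Sprr2h (0.73), Cstdc6 (0.70) and Sprr2a3 (0.66). Krt6b is a keratin of stressed epidermis, and the Sprr2 genes encode small proline-rich proteins of the cornified envelope. Wfdc17 was most like Krt2 (0.48), a keratin of late suprabasal cells, then Gsta2 (0.42), Mt4 (0.41), Serpinb3d (0.39) and Wfdc18 (0.38). Between the members, r was 0.17 for S100a8 and Wfdc17 and 0.09 for S100a9 and Wfdc17, and with Ptprc r was 0.00 for S100a8, -0.03 for S100a9 and -0.02 for Wfdc17. These cells share libraries and differ in depth.

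Across the 8 plates, with r of log2 CPM among 6045 genes, the genes nearest to S100a8 were Plpp6 (0.99), Mxi1 (0.98), Prrg4 (0.98), S100a9 (0.97) and Agpat3 (0.97). Those nearest to S100a9 were S100a8 (0.97), Plpp6 (0.97), Casp14 (0.96), Rbp2 (0.96) and Sprr2a3 (0.96), and those nearest to Wfdc17 were Serpinb3c (0.99), Plekha1 (0.99), Car2 (0.98), Krt2 (0.98) and Serpinb3a (0.98). With only 8 plates in 4 groups such values are a description.

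Of the 14 other S100 genes listed, 11 were tested and none was called in any of the 7 comparisons, in which 0 to 0.527% of all genes were called, so a count of 0 says little about this list. At 1w pw1 against 0w their median log2 fold change was 0.95 beside -0.04 over all genes. The most abundant were S100a11 (2.29 ± 0.53, edgeR adjusted p = 0.103), S100a6 (0.95 ± 0.82, 0.738) and S100a10 (0.35 ± 0.54, 0.882). S100a11 was found in 670 of 696 cells and S100a6 in 506, against 143 for S100a8. Of 20 other WAP genes 7 were tested, and 1 was called, beside 0.527% and 0.267% of all genes after the first and second wounds. Wfdc18, with 0 counts on both 0w plates, rose to 25.0 and 87.9 CPM at 1w pw1 (at least 711-fold, edgeR adjusted p = 0.0135) and to 78.5 and 38.4 CPM at 1w pw2 (at least 736-fold, 0.0227). At 8w pw1 it was at 10.3 and 2.94 CPM.

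Of 18 genes for alarmin receptors and the pathway below Tlr4, 16 were tested and none was called in any comparison, again beside at most 0.527% of all genes. At 1w pw1 against 0w the median log2 fold change of this list was 0.23. Bsg, a receptor named for S100a9, was the most abundant (log2 fold change 0.17 ± 0.56, edgeR adjusted p = 0.958), followed by the kinase gene Ikbkb (-0.14 ± 0.47, 0.961) and Nfkbia, the inhibitor of NF-kB (-0.49 ± 0.46, 0.772). Tlr4 itself had counts in 23 cells and Ager in 6.

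A list of 40 genes of an epidermal defence programme was also read. It held, among others, antimicrobial peptides, chemokines, interleukins and their receptors, transcription factors and cornified envelope genes. Of the 40, 26 were tested and none was called in any comparison, beside the same background of at most 0.527%. Their median log2 fold change was 0.09 at 1w pw1 against 0w. The defensins Defb6 (0.99 ± 0.73, edgeR adjusted p = 0.686) and Defb1 (-0.06 ± 0.67, 0.994) and the interleukin-1 antagonist Il1rn (1.26 ± 0.65, 0.519) were the most abundant members of the list.

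Keratins of stressed epidermis moved with the wounds. Krt6a, Krt6b and Krt16 rose against 0w after each wound and fell from 1w pw1 to 8w pw1, while Krt17 was not called (3 of 4 genes in each, beside 0.527%, 0.267% and 0.115% of all genes). The calls of the falls were lost without either 8w pw1 plate, and not all 3 were kept without 1w pw1 replicate 1. Not all 3 calls of the rises after the second wound were kept without 0w replicate 2. Krt6a went from 49.9 and 50.7 CPM at 0w to 5798 and 3230 CPM at 1w pw1 (log2 fold change 6.49 ± 0.54, edgeR adjusted p = 0.00137) and to 1070 and 1259 CPM at 1w pw2 (4.53 ± 0.50, 0.0121). Krt6b, at 0 counts on both 0w plates, was at 5141 and 2464 CPM at 1w pw1 and at 92.7 and 299 CPM at 1w pw2 (log2 fold change between the wounds -4.28 ± 0.73, edgeR adjusted p = 0.781, not called). It is the one gene of these lists called from 8w pw1 to 1w pw2 (log2 fold change 10.39 ± 1.03, edgeR adjusted p = 0.0430). That value was fitted against 4 counts over both 8w pw1 plates and so is no measure of size. The call was lost with the plates compared alone and with every cell scaled equally. It was also lost without either 1w pw1 plate or either 8w pw1 plate. Krt10 rose at 1w pw1 against 0w (4.16 ± 0.66, 0.0276), from 831 and 1703 CPM to 21380 and 24016 CPM.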

How the data were processed

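Full-length Smart-seq2 cDNA of single tdTomato+ cells was sequenced by the authors. The deposited table holds estimated counts per gene and cell. The submitters' processing notes name Salmon 0.13.1, Seurat and R 4.0.3 with mm10/GRCm38, and the study's methods dropped cells under 1000 genes or above 50% mitochondrial content, and genes found in fewer than 5 cells. Of the deposited values 96.6% are whole.

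Estimated counts were summed over the cells of each plate and rounded. All 8 plates were fitted in 1 model by time point with edgeR 4.0.16 (quasi-likelihood test, TMM, filterByExpr, Benjamini-Hochberg adjustment over all genes tested) in R 4.3.3, with DESeq2 1.42.0 as an alternative. SE is the log2 fold change divided by the root of F. The fitting steps were run on simulated counts that gave all genes the same spread. Genes absent before wounding or held by few cells, as here, were not part of its design, so that run does not cover them. Folds against plates with 0 counts are lower bounds from 3 counts over both plates. Cell-level shares and likeness used Python 3.11.15, pandas 2.3.3 and SciPy 1.17.1. Replicate plates had r of 0.852 to 0.917 across genes (log2 CPM, prior count 2).

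The members and lists were chosen with earlier results of these data known. Named genes are the members, Ptprc and the keratin panel, the 5 genes most like each member across plates (average log2 CPM of at least 4) and across cells (found in at least 20 cells), and from each list the called genes or, where none was called, the 3 with the highest average level. Other genes named were chosen after their values were seen: Tlr4, Ager, Csf3r, Cxcr2, Mmp8, Mmp9, Arhgdib, Cd74, H2-Aa, H2-Ab1, Pecam1 and Kdr. Alternatives comprised scaling, tool, filters, samples fitted, weight of cells, exclusion of Ptprc-positive or leukocyte-marker cells, thresholds, and leaving out each plate.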

Additional observations from a re-analysis of the deposited data

How the results depend on the processing

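Over 7 comparisons of the 3 genes, 335 fits kept the side of the threshold without turning direction (1 of them, S100a9 at 8w pw1 against 0w without 8w pw1 replicate 1, has a log2 fold change of 0), 23 came to pass it, 11 no longer did and 5 turned direction; the causes were not tested. For 1w pw1 against 0w, S100a8 passed by DESeq2 (adjusted p = 9.03e-06), with the plates compared alone (0.0132) and with the stricter filter on cells (0.0331). S100a9 passed by DESeq2 (3.97e-05), with no filter on low counts (0.0433), the plates compared alone (0.0138), every cell scaled equally (0.0467), the stricter filter (0.0180) and without the highest cell of each plate (0.0290), while Wfdc17 no longer passed without that cell (0.0540). For 8w pw1 against 0w, DESeq2 passed Wfdc17 (0.00191). For 1w pw2 against 0w, S100a8 passed by DESeq2 (0.00327) and with the plates compared alone (0.0421), S100a9 passed by DESeq2 (0.00600), and Wfdc17 failed with the plates compared alone (0.113) and the stricter filter (0.0868). For 8w pw1 against 1w pw1, the stricter filter passed S100a8 (0.0482) and S100a9 (0.0463), and DESeq2 passed Wfdc17 (0.0286).

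Leaving out 1 plate at a time, where a lone plate is assumed to vary like the others, gave edgeR adjusted p-values at 1w pw1 against 0w of 0.00848 to 0.348 for S100a8, 0.0168 to 0.205 for S100a9 and 0.00643 to 0.129 for Wfdc17. At 1w pw2 against 0w they were 0.0254 to 0.475, 0.0569 to 0.448 and 0.00873 to 0.196. The 8w pw1 value of S100a8 against 0w ranged from 0.233 to 1, turning to -3.64 on the log2 scale (0.631) without 8w pw1 replicate 1, and its difference between the healings from 0.170 to 1.00, turning to 0.54 (0.976) without the same plate. Wfdc17 at 1w pw2 against 1w pw1 ranged from 0.724 to 1 and turned positive without 1w pw1 replicate 2 (1.71, 1), without 1w pw2 replicate 1 (0.74, 0.920) and without the highest cells (2.67, 0.758).

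With the replicate block, S100a9 passed at 1w pw1 against 0w (0.0353), Wfdc17 had 0.00807 there, and no other call of the 3 genes changed. The block took calls over all genes from 0 to 3 at 8w pw1 against 0w and from 0 to 3 for the difference between the healings. At 1w pw2 against 8w pw1 it took them from 1 to 8. Calls over all genes went from 73 to 236 at 1w pw1 against 0w, from 37 to 96 at 1w pw2 against 0w and from 16 to 110 at 8w pw1 against 1w pw1. DESeq2 made 723, 688 and 561 calls there, and the stricter filter 24, 9 and 20. Calls over all genes were also far fewer for both wounds against 0w without either 0w plate. The same held for 8w pw1 against 1w pw1 without either 8w pw1 plate or either 1w pw1 plate. Plates of 1 number share only that number in the labels, and their deviations correlated at 0.121 to 0.213.

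At 10 or more counts the mean share of S100a8-positive cells was 1.65%, 26.0% and 25.4% at 0w and after the first and second wounds, and thinned to 20000 counts 2.55%, 30.7% and 29.8%. For S100a9 it was 18.9% after the first wound and 9.01% after the second (thinned, 11.97% after the second). For Wfdc17 it was 5.34% and 10.8% after the first and second wounds and 2.90% at 8w pw1 (thinned, 8.05%, 17.9% and 5.49%). At 100 CPM, 100% of S100a8-positive and of Wfdc17-positive cells were keratin-positive, and at 10000 CPM 85.3%, 92.2% and 87.8% of S100a8-, S100a9- and Wfdc17-positive cells were. Fitting the plates compared alone gave no S100a9 value for 8w pw1 against 0w and was not run for the difference between the healings.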
